A study of Ovis aries with 8 samples.

Results

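The transcripts of 37 autophagy and lysosome genes were examined in the mediobasal hypothalamus of food-restricted and well-fed adult ewes. The members were taken by symbol from the deposited table, which lists 36 of the 37 by name. The remaining member, ATG16L1, stands there under the LOC name of its gene ID. All 37, out of 33609 genes listed, passed the filter on low counts and were tested together with the other genes (18193 in all). The animals were Ile-de-France ewes, 60 fed ad libitum and 60 restricted in food, with 30 of each studied per year in consecutive years. RNA of single ewes was mixed in equal amounts, 15 ewes to a pool, into 4 pools per group, and n counts pools throughout. The sources used here do not give the degree and length of the restriction or the year behind each pool. The error of each mean is the spread among mixes of animals, and mixing hides the spread among single ewes. No source says whether any ewe was used in several pools, so p-values measure the spread among these pools only.

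Macroautophagy encloses cytoplasm in a double-membraned autophagosome, which fuses with a lysosome where hydrolases degrade the contents. The ULK kinase complex starts the process, a phosphatidylinositol 3-kinase complex marks the membrane, and a conjugation system attaches ATG8 proteins (the LC3 and GABARAP families) to lipid, where cargo receptors bind them. Nutrient shortage is a known trigger, acting through the kinases MTORC1 and AMPK, and much of this regulation is on proteins and their location. In rodents, autophagy in AGRP neurons of the arcuate nucleus, which lies in this tissue, is known to take part in the feeding response to fasting. The values below are of transcripts and say nothing of autophagic flux. Their unit, CPM, is a read count corrected for library size and not divided by gene length, so levels are compared within a gene and not between genes.

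Total counts per pool lay between 36192025 and 48125991. The tissue label was checked against 8 genes of the mediobasal hypothalamus, all of which were detected, among them AGRP, POMC, TAC3 and NKX2-1. The tanycyte gene RAX was low, near 1 CPM (0.894 in the well-fed and 1.08 in the food-restricted group). AGRP, the peptide of hunger neurons, was the 1 gene of 18193 called (0.00550%), at 193, 137, 146 and 144 CPM in food-restricted pools 1 to 4 and at 38.2, 47.1, 60.7 and 56.9 CPM in well-fed pools 1 to 4 (log2 fold change 1.61, SE 0.17, edgeR adjusted p = 0.0296). Leaving out any 1 pool ended this call (edgeR adjusted p from 0.0706 to 0.215). It serves here only as the size of a feeding response in these libraries. The pools also stood apart in a way the groups do not explain. The first principal component of log2 CPM held 34.7% of the variance, with food-restricted pools 1 and 2 and well-fed pools 3 and 4 below 0 and the other 4 pools above 0. All 8 pools fell on the same sides when the component was computed without the members and the other pathway genes. Food-restricted pool 4 lay closest to 0. Results are therefore also given within these 2 sets of pools, whose origin is not given in the labels.

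No autophagy or lysosome gene was called higher or lower with food restriction. Of the 37 members, 0 passed the edgeR test over all genes (adjusted p of at least 0.999995), and 0 had an unadjusted p under 0.05, where 1.70% of all tested genes did. DESeq2 and limma voom likewise called 0 members and placed 0 under an unadjusted p of 0.05. In no member did all pools of 1 group lie above all pools of the other, which occurred in 1.60% of all tested genes. The fitted value was above 0 for 20 members and below 0 for 17 (above 0 in 52.9% of all genes), with a median log2 fold change of 0.0083, beside 0.013 over all genes tested. The values ran from -0.42 for GLA to 0.26 for TFEB. The 95% interval lay within 1.5-fold in both directions for 29 of the 37 members, against 67.9% of the 14571 tested genes at or above the mean CPM of the lowest member. It lay within 2-fold for 36 (91.8% of those genes), the exception being GLA. A change of the size of AGRP (3.06-fold) lay outside the interval of every member. The median SE of the members was 0.15 on the log2 scale. In whole tissue, a change in a few cells can be hidden by the rest, and fewer cells of a type cannot be told apart from less RNA per cell.

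**Figure D1:**
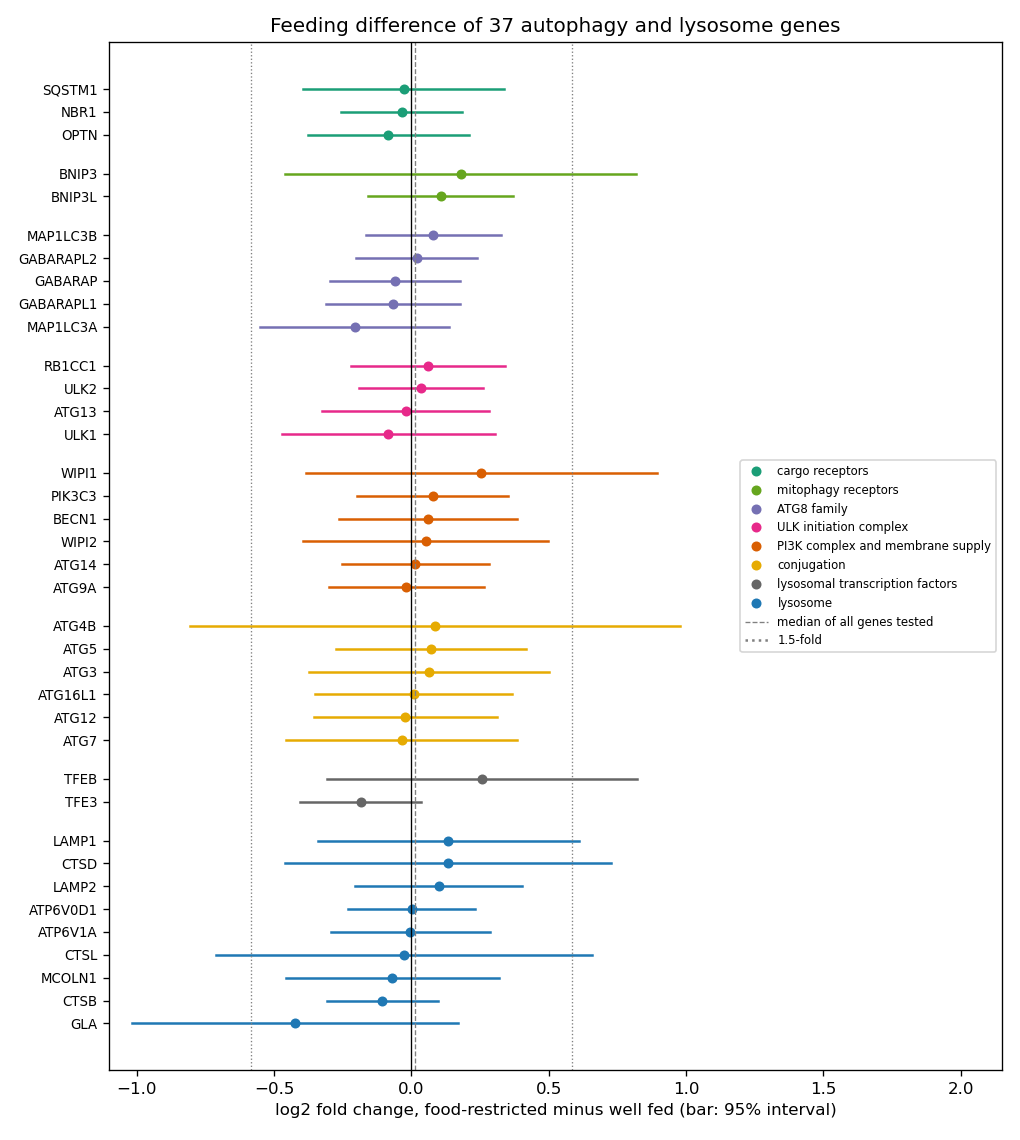
Log2 fold change (x axis, food-restricted minus well fed; points, bars are 95% intervals from edgeR) of each of the 37 members, grouped by role, with the median of all genes tested as a dashed line and 1.5-fold as dotted lines. All 37 intervals include 0, and 8 reach past 1.5-fold in at least 1 direction.

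Initiation genes were close to 0. The kinases ULK1 and ULK2 and their partners ATG13 and RB1CC1 (also known as FIP200) had a median log2 fold change of 0.01, between -0.08 and 0.06. RB1CC1, the scaffold of the complex, was highest in this group, at 83.9, 100.5, 118.8 and 104.7 CPM in food-restricted pools 1 to 4 and at 104, 105, 96.1 and 85.9 CPM in well-fed pools 1 to 4 (0.06, SE 0.13). ULK1 was lowest, at 67.5, 100.4, 60.9 and 64.5 CPM against 65.8, 71.3, 91.8 and 81.9 CPM (-0.08, SE 0.17). The groups overlapped in both genes, and in ULK1 food-restricted pool 2 lay above the 7 other pools. ATG13, which binds both kinase and scaffold, was at 167 ± 27.3 CPM against 169 ± 18.7 CPM (mean ± SD, n = 4 each), and ULK2 at 92.5 ± 6.84 against 90.3 ± 5.61 CPM.

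The next step, the lipid kinase complex and the proteins that supply or read its membrane, had 5 of 6 members above 0 and a median of 0.06. BECN1 (Beclin 1), its regulatory subunit, was at 0.06 (SE 0.15), the catalytic subunit PIK3C3 at 0.08 (SE 0.12) and ATG14, which directs the complex to autophagosome formation, at 0.01 (SE 0.12). ATG9A, the lipid scramblase of the vesicles that seed the membrane, was lowest, at 83.6, 102.4, 72.4 and 84.7 CPM in food-restricted pools 1 to 4 and 82.8, 83.0, 99.1 and 82.7 CPM in well-fed pools 1 to 4 (-0.02, SE 0.13). The phosphoinositide-binding protein WIPI1 was highest, at 26.6, 30.5, 16.7 and 21.6 CPM against 12.8, 13.1, 25.6 and 28.5 CPM, a log2 fold change of 0.25 (SE 0.29). Its well-fed pools fell into a low and a high pair, and the food-restricted pools lay from between the pairs to just above the high one. With the side of the first component as a block its value was 0.32 (SE 0.14, edgeR adjusted p = 0.991). It was the 1 member under an unadjusted p of 0.05 in that fit, where 4.49% of all genes were. The block was itself derived from these libraries, which lowers the SE. WIPI2, a relative of WIPI1 that recruits the conjugation machinery, was at 0.05 (SE 0.20).

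The conjugation genes gave a median of 0.04, with 4 of 6 above 0. ATG7 is the activating enzyme, ATG3 the enzyme that passes ATG8 proteins to lipid, ATG12, ATG5 and ATG16L1 form the complex that directs this transfer, and ATG4B is the protease that trims ATG8 proteins and removes them from lipid. ATG4B was highest, at 57.1, 80.7, 27.7 and 35.2 CPM in food-restricted pools 1 to 4 and 25.6, 26.9, 67.6 and 69.0 CPM in well-fed pools 1 to 4. Its pools were either high or low in both groups, and the log2 fold change of 0.09 carried the largest SE of all members (0.40). ATG7 was lowest, at 21.2, 33.5, 21.1 and 26.3 CPM against 23.8, 20.7, 32.1 and 28.1 CPM (-0.04, SE 0.19). The others were at 0.07 (SE 0.16) for ATG5, 0.06 (SE 0.20) for ATG3, 0.01 (SE 0.16) for ATG16L1 and -0.02 (SE 0.15) for ATG12. Without food-restricted pool 2 the median of the 6 conjugation genes was -0.03, and without well-fed pool 2 it was -0.04, so its sign rests on single pools.

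The 5 ATG8 genes had the narrowest spread between pools of the 8 role groups (median within-group SD of 0.14 on the log2 CPM scale, against 0.23 for tested genes at or above the lowest member). MAP1LC3B, the LC3 protein most used as an autophagosome marker, was highest, at 147, 123, 136 and 114 CPM in food-restricted pools 1 to 4 and 110.0, 126, 125 and 130.2 CPM in well-fed pools 1 to 4 (0.08, SE 0.11). MAP1LC3A was lowest, at 134, 127, 96.3 and 105 CPM against 111, 153, 114 and 156 CPM (-0.21, SE 0.16). In MAP1LC3A the 2 highest pools were well fed and the 2 lowest food-restricted, with overlap in between. The GABARAP branch, which acts later in autophagosome closure and fusion, gave 489 ± 52.8 against 509 ± 42.1 CPM for GABARAP, 258 ± 25.1 against 270.3 ± 27.0 CPM for GABARAPL1 and 287 ± 28.4 against 283 ± 15.3 CPM for GABARAPL2 (mean ± SD, n = 4 each). How reads shared with near-identical copies were counted is not given, so values of these short paralogous genes are uncertain.

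All 3 cargo receptors were slightly below 0 and none differed beyond its spread (median -0.04). SQSTM1, also known as p62, carries ubiquitinated cargo. It was at 237, 354, 209.5 and 238 CPM in food-restricted pools 1 to 4 and 240.4, 244, 317 and 258 CPM in well-fed pools 1 to 4 (-0.03, SE 0.17), with the highest and the lowest pool both food-restricted. OPTN, a receptor in mitophagy and for bacteria, was lowest, at 101, 101, 119 and 110.0 CPM against 131, 131, 98.4 and 96.7 CPM (-0.08, SE 0.13). Here the food-restricted pools lay between the high and the low pair of well-fed pools. NBR1, a partner of SQSTM1 in aggregate clearance, was at 169 ± 10.5 against 173 ± 14.3 CPM (mean ± SD, n = 4 each). The mitophagy receptors BNIP3 and BNIP3L (NIX), outer mitochondrial membrane proteins, were both above 0 (median 0.14). BNIP3 was at 167, 159.9, 95.4 and 95.9 CPM against 66.2, 87.9, 149.7 and 154 CPM (0.18, SE 0.29), again with a high and a low pair in each group. BNIP3L was at 152, 122, 167 and 143 CPM against 149.9, 139, 123 and 131 CPM (0.11, SE 0.12).

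The transcription factors TFEB and TFE3, which enter the nucleus in starved cells and activate lysosomal and autophagy genes, went in opposite directions without passing the test. TFEB had the highest value of all members, at 25.9, 22.3, 11.8 and 17.0 CPM in food-restricted pools 1 to 4 and 11.95, 13.5, 20.3 and 18.7 CPM in well-fed pools 1 to 4 (0.26, SE 0.26). TFE3 had the smallest unadjusted p of the members (rank 723 of 18193), at 72.1, 81.9, 71.0 and 77.1 CPM against 90.4, 85.0, 87.5 and 80.4 CPM. Only food-restricted pool 2 reached into the well-fed range, above well-fed pool 4. Its log2 fold change was -0.18 (SE 0.10, 95% interval -0.40 to 0.04, edgeR adjusted p of at least 0.999995), and an exact two-sided permutation test gave p = 0.0571, where 4 against 4 pools allow 0.0286 at the lowest. TFE3 was -0.13 within the pools below 0 on the first component and -0.24 within those above 0. Over all the alternatives its log2 fold change stayed between -0.21 and -0.16. With 1 surrogate variable it was the 1 member with an unadjusted p under 0.05, where 5.43% of all genes were and 0.0495% passed after adjustment. That variable was estimated from these same counts.

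Lysosomal genes had a median of 0.00, with 4 of 9 above 0. LAMP1, a major lysosomal membrane protein, was highest, at 549.9, 567, 364 and 429 CPM in food-restricted pools 1 to 4 and 308, 338, 538 and 556 CPM in well-fed pools 1 to 4 (0.13, SE 0.21). CTSD, an aspartic protease, followed at 481, 583, 288 and 414 CPM against 279, 272, 529 and 529 CPM (0.13, SE 0.27). In both genes each group held high and low pools, and the 2 lowest pools were well fed in each. LAMP2, the membrane protein that also serves chaperone-mediated autophagy, was at 0.10 (SE 0.14). The V-ATPase subunits that acidify the lysosome were at 0.00 in both cases, with an SE of 0.13 for ATP6V1A and 0.10 for ATP6V0D1.

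Among the other lysosomal members, CTSB, a cysteine protease, had the smallest SE of the 37 (0.09). It was at 207, 244, 215 and 209.9 CPM in food-restricted pools 1 to 4 and 233, 242, 236 and 231 CPM in well-fed pools 1 to 4 (-0.11), and food-restricted pool 2 alone lay above all well-fed pools while the 3 others lay below them. MCOLN1, the lysosomal calcium channel upstream of TFEB activation, was at -0.07 (SE 0.18). GLA, the alpha-galactosidase that clears glycosphingolipids, was the lowest of all members, at 3.25, 4.69, 3.38 and 4.77 CPM against 6.66, 3.79, 7.17 and 3.94 CPM (-0.42, SE 0.27). Well-fed pools 1 and 3 held its high values, and the value was -0.31 without the former and -0.24 without the latter. CTSL was low, at 1.48 to 2.61 CPM in food-restricted and 1.61 to 2.70 CPM in well-fed pools (-0.03, SE 0.31). A row of a related cathepsin, CTSV, looked up after these values were seen, held 122 ± 16.3 against 127 ± 14.2 CPM (-0.06, SE 0.13). Whether its reads come from a cathepsin L gene of the sheep was not tested.

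Side by side, the role groups differed little in their medians. These were -0.06 for the ATG8 family, -0.04 for cargo receptors, 0.00 for lysosomal genes, 0.01 for the ULK complex, 0.04 for conjugation, 0.04 for the 2 transcription factors, 0.06 for the lipid kinase and membrane group and 0.14 for the 2 mitophagy receptors. They are descriptions, and no difference between the groups was tested. With 1 pool left out in turn, the median changed sign at least once for the ATG8 family (-0.041 to 0.027), the ULK complex (-0.015 to 0.048), the lysosomal genes (-0.037 to 0.048), the transcription factors (-0.037 to 0.139), conjugation (-0.037 to 0.080) and all 37 members together (-0.017 to 0.041). It kept its sign for cargo receptors, mitophagy receptors and the lipid kinase and membrane group. Summed CPM overlapped between food-restricted and well-fed pools in all 8 role groups. For the lysosomal members the sums were 2040, 2183, 1715 and 1885 in food-restricted pools 1 to 4 and 1642, 1631, 2135 and 2128 in well-fed pools 1 to 4. For the ATG8 family they were 1378, 1197, 1280.4 and 1262 against 1286, 1348, 1252 and 1389.7. The lysosomal sums fell into a high and a low set that each held pools of both groups, while the ATG8 sums did not. A sum follows mainly its genes with the highest CPM, here LAMP1 and CTSD, which were both higher in the pools below 0 on the first component. Of the 9 lysosomal members, 3 (LAMP2, CTSL and ATP6V1A) were on average higher in the pools above 0, so the sums do not describe every gene of the group.

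**Figure D2:**
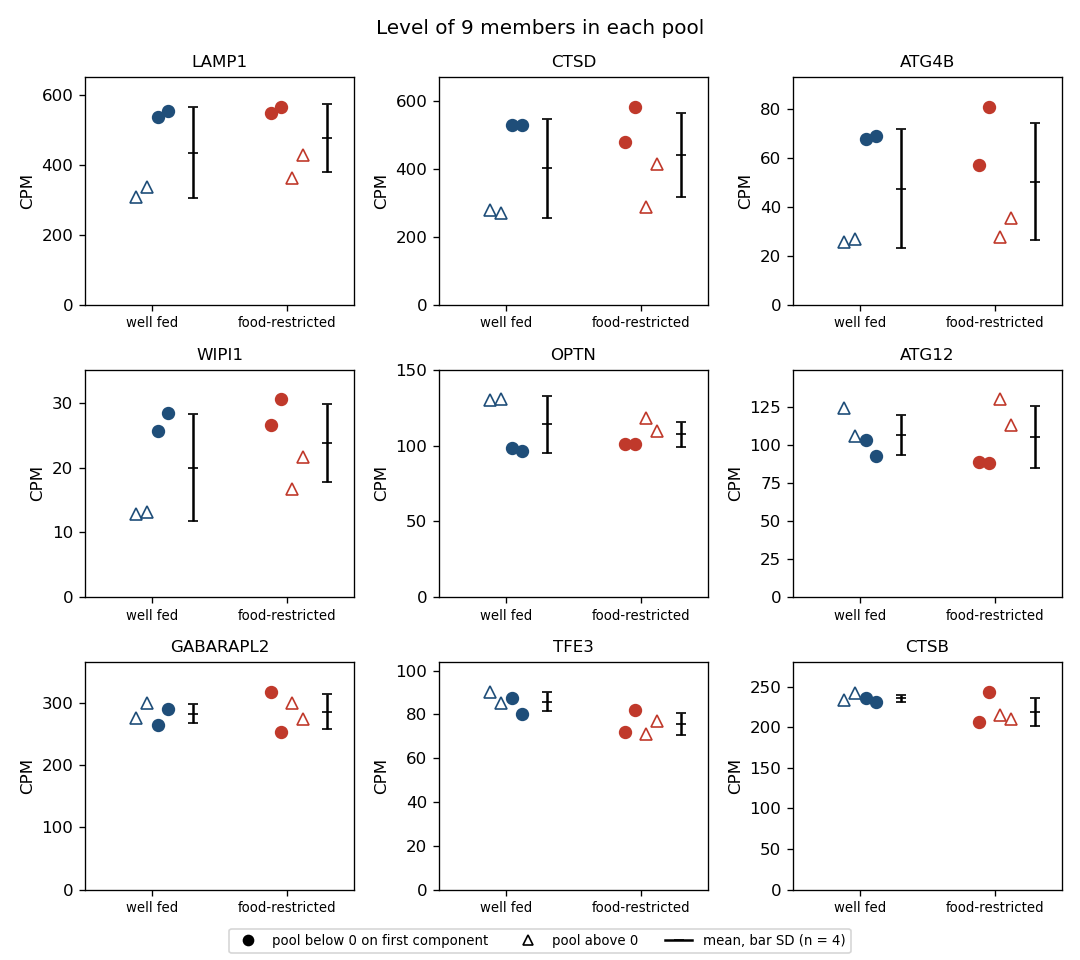
CPM (y axis, starting at 0) of 9 members in each of the 4 well-fed (blue) and 4 food-restricted (red) pools, with circles for pools below 0 and triangles for pools above 0 on the first principal component, and the mean with its SD beside them. LAMP1, CTSD, ATG4B and WIPI1 are higher in the circles and OPTN and ATG12 in the triangles of both groups, while GABARAPL2, TFE3 and CTSB mix them.

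The larger differences among pools ran across the feeding groups. In 14 of the 37 members all 4 pools below 0 on the first component lay on 1 side of all 4 pools above 0, which was so in 23.1% of all tested genes and in 27.1% of those at or above the lowest member's mean CPM. The component was computed from these same libraries, so these values describe the split and no test is given. For 31 of the 37 members the difference between the 2 sets of pools was larger than that between the feeding groups, against 72.3% of all genes. Among the 14571 tested genes at or above the lowest member's mean CPM, it was larger in 11067. The median absolute log2 difference over the members was 0.26 between the sets and 0.07 between the feeding groups, and over all genes tested it was 0.25 and 0.11.

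Members of 1 role group went in different directions along this split. Of the 14, 9 were higher in the pools below 0: ATG4B (2.38-fold, 57.1 to 80.7 against 25.6 to 35.2 CPM), BNIP3 (1.84-fold), WIPI1 (1.76-fold), CTSD (1.72-fold, 481 to 583 against 272 to 414 CPM), TFEB (1.61-fold), LAMP1 (1.55-fold, 538 to 567 against 308 to 429 CPM), WIPI2 (1.48-fold), MCOLN1 (1.37-fold) and ATG16L1 (1.27-fold). The other 5 were higher in the pools above 0: CTSL (1.52-fold), ATG12 (1.27-fold, 106 to 130.0 against 88.2 to 103.6 CPM), BECN1 (1.23-fold), OPTN (1.23-fold, 110.0 to 131 against 96.7 to 101 CPM) and RB1CC1 (1.18-fold). A difference over 1.5-fold was met in 7 members, against 17.6% of all genes. Of the 14571 tested genes at or above the lowest member's mean CPM, 1817 met it. Within the conjugation system ATG4B and ATG12 thus lay on opposite sides, as did CTSD and CTSL among lysosomal proteases. The lysosomal membrane proteins LAMP1 and LAMP2 differed by -0.63 and 0.25 (above minus below, log2 scale), the latter with overlapping sets. The ATG8 genes had the smallest median absolute difference of the 8 role groups (0.04), with values between -0.20 for MAP1LC3A and 0.04 for GABARAP.

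**Figure D3:**
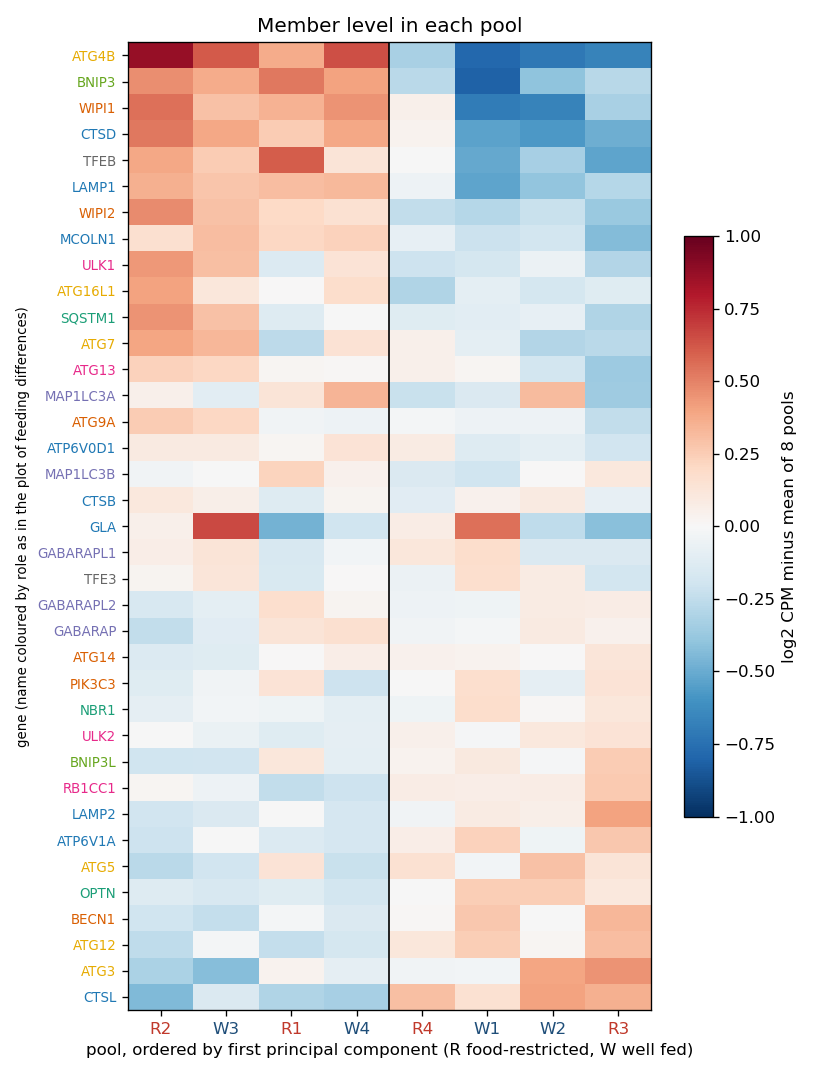
Log2 CPM minus the mean of the 8 pools (colour, red higher, blue lower) for each member (rows, ordered by their difference between the sets) in each pool (columns, ordered by the first principal component; R food-restricted, W well fed; the line marks 0). ATG4B, BNIP3 and WIPI1 at the top are red on the left and mostly blue on the right, CTSL, ATG3 and ATG12 at the bottom mostly the reverse, and the pale column of R4 shows that this pool is intermediate.

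Across the 8 pools, with the mean of each feeding group removed, members on the same side of the split varied together. Pearson's r was 0.97 for LAMP1 and CTSD, 0.99 for LAMP1 and WIPI1, 0.98 for LAMP1 and ATG4B, and 0.98 for TFEB and MCOLN1. It was -0.98 for OPTN and LAMP1 and -0.93 for ATG4B and CTSL. Other pairs were weaker, with r of 0.61 for ATG16L1 and TFEB and for BECN1 and RB1CC1, which share a side. For ATG16L1 and RB1CC1, on opposite sides, r was -0.43. These coefficients are over 8 points that share libraries. How far the split into high and low pools gives them was not tested.

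**Figure D4:**
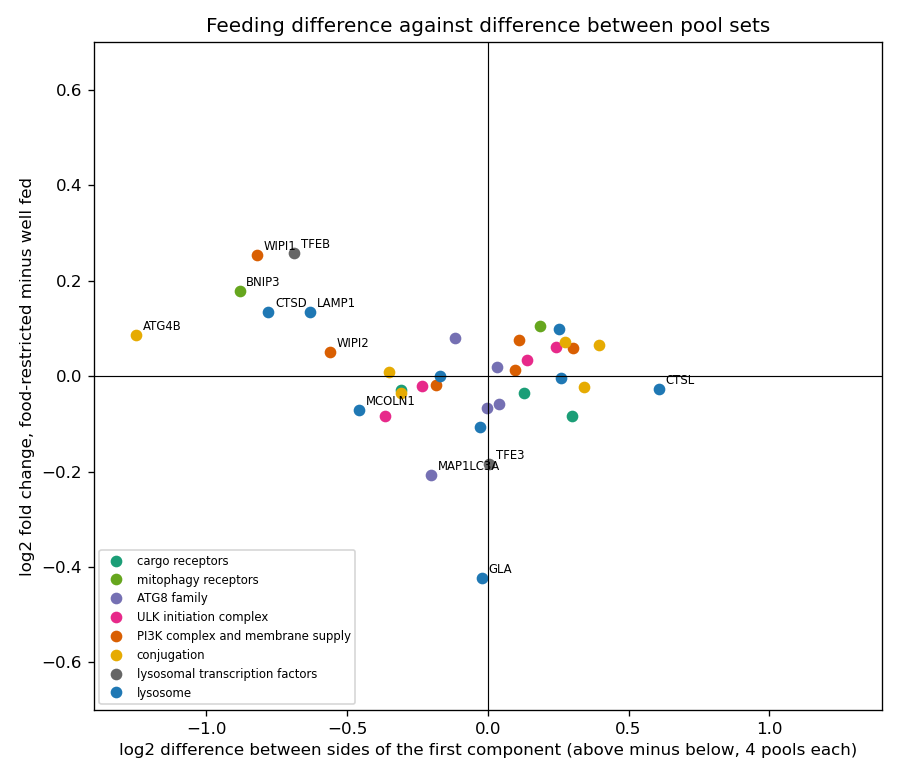
Log2 fold change with feeding (y axis, food-restricted minus well fed) against the log2 difference between the 2 sets of pools (x axis, mean of the 4 pools above 0 minus the 4 below 0) for the 37 members, coloured by role; the axes differ in scale. Members spread from -1.25 (ATG4B) to 0.61 (CTSL) along x and from -0.42 (GLA) to 0.26 (TFEB) along y.

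Within each set the feeding difference rests on 2 pools against 2 and has no test. Of the 9 members higher in the pools below 0, 6 had the higher feeding value (food-restricted over well fed) in the pools above 0. LAMP1 was 1.02-fold below and 1.22-fold above 0, CTSD 1.00-fold and 1.25-fold, WIPI1 1.06-fold and 1.46-fold, BNIP3 1.08-fold and 1.25-fold, ATG4B 0.994-fold and 1.19-fold and MCOLN1 0.941-fold and 0.961-fold. The other 3 went the other way, with TFEB at 1.24-fold below and 1.12-fold above 0, WIPI2 at 1.08-fold and 0.965-fold and ATG16L1 at 1.04-fold and 0.949-fold. The 9 were picked for following the split, and food-restricted pool 4 lay closest to 0 on the component (9.23). Among the pools above 0, this pool held the highest CPM of each of the 9 except WIPI2 and ATG16L1. How far its position shapes the feeding values above 0 was not tested. With the side as a block in the edgeR fit of all genes, the median SE of the members fell from 0.15 to 0.10. The side was derived from these same libraries, so a fall in SE is built into that fit. In it 0 of 37 members were called (lowest adjusted p 0.991), while 6 genes (0.0330%) were called in all.

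Among markers of cell types and of the region, the sets did not overlap in 10 of 45. This share was close to the 23.1% of all tested genes, so the markers as a whole did not stand out along the split. The largest of these differences were in CLDN5, a tight junction protein of endothelium, at 14.4 to 22.7 CPM in the pools below 0 and 2.28 to 4.29 CPM in those above 0 (4.99-fold), and in POMC, the melanocortin precursor of arcuate neurons, at 233 to 359 against 50.5 to 118 CPM (3.85-fold). The others were RBFOX3, MBP and MAG, higher below 0, and MAP2, SLC1A3, GJA1, P2RY12 and FLT1, higher above 0. Members of 1 marker list thus went both ways, such as RBFOX3 and MAP2 of neurons and CLDN5 and FLT1 of endothelium. The summed CPM of 6 neuron markers did not overlap between the sets, at 2737 to 3094 below and 3106 to 3631 above 0, a narrow gap. By gene, 1 of the 6 (MAP2) was higher above 0 without overlap, 1 (RBFOX3) was lower, and the rest overlapped. Such sums follow mainly the genes with the highest CPM, such as GFAP for astrocytes and CGA for pituitary genes. The other sums overlapped. They were 713 to 966 below and 406 to 716 above 0 for 8 genes of the mediobasal hypothalamus, 4124 to 5238 and 3653 to 4330 for 6 oligodendrocyte markers, and 556 to 653 and 502 to 591 for 8 microglia and macrophage markers. For astrocytes they were 7682 to 8844 and 7329 to 8703, for endothelium 139 to 183 and 131 to 144, and for tanycytes 1234 to 1398 and 1154 to 1401. Between the feeding groups all of these sums overlapped, as did those of 3 pituitary genes (894 to 1616 and 946 to 1551). The part of cell makeup in the members' values was not tested.

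Beyond the 37 members, 163 other genes of the pathway were listed, of which 161 were tested. None passed, and 79 were above and 82 below 0 (median 0.00). One, CTSH, was lower at an unadjusted p under 0.05, where 1.03% of all genes were (edgeR adjusted p of at least 0.999995). CTSH, a lysosomal aminopeptidase, was at 18.6, 21.7, 18.3 and 18.5 CPM in food-restricted pools 1 to 4 and 23.5, 26.2, 22.7 and 25.3 CPM in well-fed pools 1 to 4, a log2 fold change of -0.34 (SE 0.12). All its food-restricted pools lay below all its well-fed pools. This was also so for the lysosomal cystine transporter CTNS, named after its values were seen, at 11.7, 12.9, 10.5 and 13.9 CPM against 15.9, 14.1, 14.7 and 15.2 CPM (-0.29, SE 0.14). They were the 2 such genes of the 161, against 1.10% of all genes that did not overlap in this direction.

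By list, the 36 other lysosomal hydrolases had 14 above and 22 below 0 (median -0.06), the 22 other lysosomal membrane and transport genes 12 and 10 (0.02), and the 18 other V-ATPase subunits 8 and 10 (-0.02). The 13 genes of autophagosome-lysosome fusion had 4 above and 9 below (-0.06). The 15 other autophagy receptors had 11 above and 4 below (0.06), the 11 tested other initiation and membrane genes 6 and 5 (0.04), and the 6 other conjugation genes 2 and 4 (-0.04). The 36 genes of MTORC1 and AMPK nutrient sensing, which sit upstream of ULK1 and TFEB, had 20 above and 16 below (0.02), from -0.31 for DDIT4, an inhibitor of MTORC1 signalling (SE 0.18), to 0.25. The 4 tested transcription regulators other than TFEB and TFE3 had a median of 0.05. In each list 0 genes passed.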

How the data were processed

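The deposited table gives unnormalized read counts for each gene in each of 8 pools, per the file headers. Per the labels, TriReagent was used for extraction and a stranded TruSeq mRNA kit for libraries. The submitters' processing notes name featureCounts 2.0.0, SAMtools 1.9, Bowtie2 2.3.5.1, TopHat2 2.1.1, FastQC and bcl2fastq 2.20, with no order. Genome build, annotation and strand setting are not stated there, so overlapping genes are uncertain. Gene IDs were matched to RefSeq names of ARS-UI_Ramb_v3.0 (28100 of 33609 found).

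Genes were kept with filterByExpr (minimum count 10, total 15), scaled by TMM and tested with edgeR 4.0.16 in R 4.3.3 (quasi-likelihood F test, no covariate, Benjamini-Hochberg over all 18193 genes, threshold 0.05). The SE is the absolute log2 fold change over the square root of F. Log2 CPM used a prior count of 2. The fit was tested on simulated counts, drawn for each gene independently and without a split of the pools. That test therefore does not cover the split seen in these libraries. DESeq2 1.42.0, limma 3.58.1 and sva 3.50.0 served for alternatives, and Python 3.11.15 for figures. The members and lists were chosen with earlier results of these data known. All members are named, with values in every pool for the highest and lowest of each role group. Other pathway genes are named where they passed or held the 2 smallest p under 0.05 of their list. The full values of CTSD and CTSB, and the naming of DDIT4, were chosen after the values were seen.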

Additional observations from a re-analysis of the deposited data

Results flagged for a closer look

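Within single groups of 4 pools, 3 of 74 sets of values (37 members in 2 groups) held 1 pool far from the others, where chance flags about 1 in 20. ULK1 in food-restricted pool 2 was at 100.4 CPM while the other 3 food-restricted pools lay between 60.9 and 67.5 CPM, a gap of 0.832 of the group's range. ATG9A in well-fed pool 3 was at 99.1 CPM while the others lay between 82.7 and 83.0 CPM (0.978 of the range). ATG5 in food-restricted pool 2 was at 22.4 CPM while the others lay between 29.5 and 29.9 CPM (0.948 of the range). Both pools lie below 0 on the first principal component.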

How the results depend on the processing

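Of the 37 members, 0 were called under each of the 18 alternatives, and the lowest edgeR adjusted p of any member was 0.871, with 1 surrogate variable. Under other scalings, filters and tools up to 2 members changed sign, with 1 surrogate variable 4 did, and with 1 pool left out between 1 and 12 did, each with a main value of at most 0.18 in size. One member was higher at an unadjusted p under 0.05 with the side of the first component as a block (1) and one lower with 1 surrogate variable (1). Genes called higher over all genes numbered 1, against 0 with the replicate block, 2 with the side as a block, 4 with 1 surrogate variable and 0 with any 1 pool left out. Genes called lower numbered 0, against 4 with the side as a block, 5 with 1 surrogate variable and 3 with DESeq2. AGRP ranged from 1.49 to 1.73 with 1 pool left out, losing its call. The conjugation median ranged from -0.037 to 0.080 with 1 pool left out. Deviations of same-numbered pools correlated at -0.42 to -0.21. Same-numbered pools always lay on opposite sides of the first component, so these values cannot show whether replicate numbers pair the pools. With the replicate number as a block AGRP was 1.62 and lost its call (edgeR adjusted p = 1.00). The cause of these changes was not tested. Depth is lowest for CTSL, which rests on 57 to 112 counts per pool.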
